A study of Macaca mulatta with 6 samples.

Results

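Glutamate uptake and the glutamate-glutamine cycle are described here through 8 genes, the carriers SLC1A1, SLC1A2 and SLC1A3 and the enzymes GLUL, GLS2, GLUD1, GOT1 and GOT2. The rule names them by symbol and sets no threshold on the group difference, but it was written with earlier results of these data known. All 8 matched 1 rhesus gene identifier each in a table of 23191 genes, and all 8 had a mean of at least 10 normalized counts, the level for testing. The values come from sequencing of polyadenylated RNA in 6 libraries. The labels call the samples cortical neurons, purified from male animals of the species Macaca mulatta, the rhesus monkey, aged 3 to 4 years. There were 3 libraries from the morphine group and 3 from the saline group, named below by their replicate numbers. Over 90 days the morphine group received 3 subcutaneous injections daily of this opioid, whose dose rose from 3 mg/kg in the first week through 6, 9 and 12 mg/kg to 15 mg/kg from day 29. The saline group had 0.9% saline at 0.5 mL/kg on the same schedule. Each group held 2 monkeys per the protocol, and every library of a group has the same code in its description. At least 2 of the 3 libraries of a group therefore share an animal, the p-values are too small as tests over animals, and treatment cannot be told apart from differences between animals.

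Glutamate, the main excitatory transmitter of the cortex, is cleared from the synapse by sodium-driven carriers in the surface membrane. Astrocytes take up most of it, convert it to glutamine with glutamine synthetase, and pass the glutamine back to neurons, where glutaminase makes glutamate again. Glutamate dehydrogenase and the aspartate aminotransferases link glutamate to the citric acid cycle and to the malate-aspartate shuttle, which carries reducing power into mitochondria.

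The 2 glial carriers and glutamine synthetase were lower in the morphine libraries, and the other 5 genes did not pass the test. SLC1A2 fell by 0.68 and SLC1A3 by 0.58 on the log2 scale, and GLUL fell by 0.32. In limma 3 of the 8 genes fell and 0 rose at an adjusted p under 0.05, where 15.0% of all 16595 genes tested fell, 12.9% rose and 27.9% were called in either direction. Among the 7927 genes at least as abundant as the lowest of the 8, 37.3% were called, 21.1% as falls and 16.2% as rises. A share of 37.5% among the 8 is close to that of equally abundant genes, so the count by itself does not set them apart. At an unadjusted p under 0.05, 4 of the 8 were lower and 0 higher in limma, where 21.4% of all genes tested were lower and 20.4% higher. In edgeR and DESeq2 on recovered reads 4 fell and 0 rose at an adjusted p under 0.05. The background in edgeR was 17.7% falls and 16.3% rises (34.0% called), and in DESeq2 15.2% falls and 14.3% rises (29.5% called). The median log2 difference was -0.14 over the 8 genes and 0.01 over all genes tested.

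**Figure D1:**
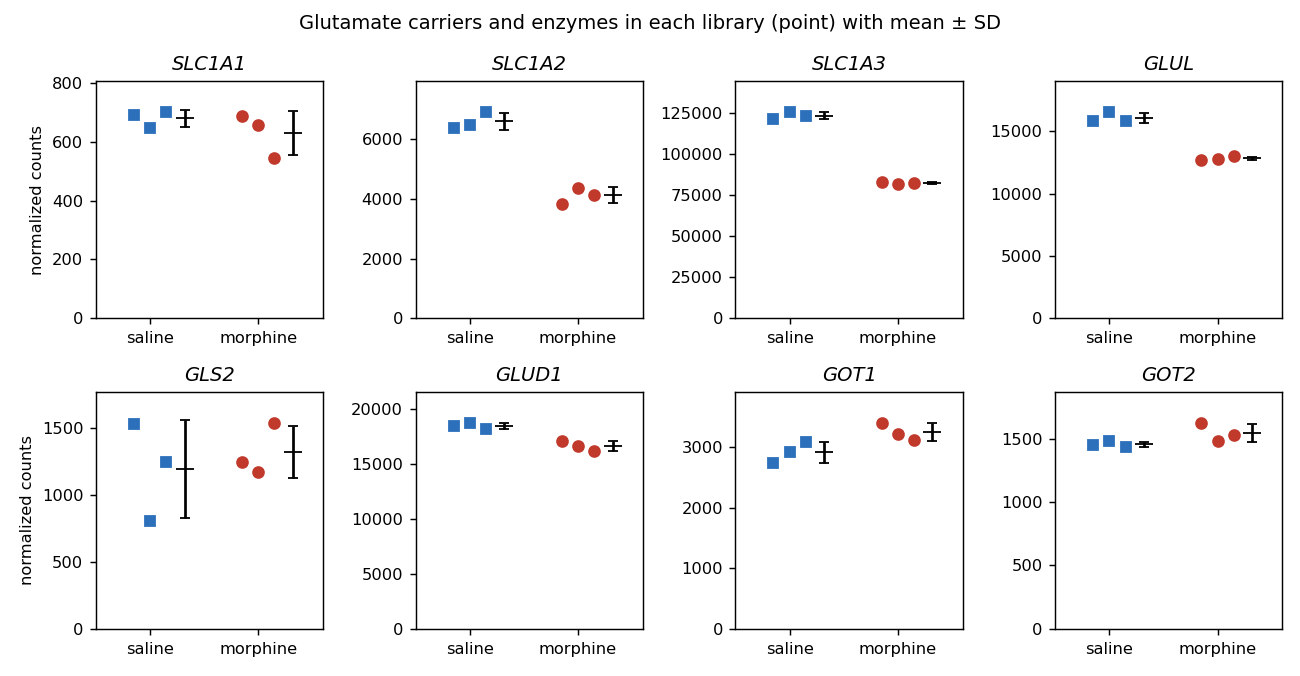
Normalized counts (y axis, from 0, one scale per gene) of the 8 genes in each saline (squares) and morphine (circles) library, with the group mean and SD (n = 3 libraries per group) beside the points. The morphine points of SLC1A2, SLC1A3, GLUL and GLUD1 lie below all saline points, those of GOT1 and GOT2 lie above them, and those of SLC1A1 and GLS2 overlap with saline.

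SLC1A2 (ENSMMUG00000004329) encodes EAAT2, the astrocyte carrier known for most of the glutamate uptake in the forebrain. Morphine libraries 1, 2 and 3 held 3834, 4375 and 4135 normalized counts of it, and the saline libraries, in the same order, held 6385, 6475 and 6908. The highest morphine library lay below the lowest saline library. The mean fell by 37.6%, from 6589 ± 279 to 4115 ± 271 (SD, n = 3 libraries per group). On the log2 scale the difference was -0.68 ± 0.0716 (SE), with a 95% confidence interval from -0.86 to -0.50 and a limma adjusted p of 0.00452. In bulk RNA, fewer astrocytes and less of this RNA in each astrocyte cannot be told apart, for this gene and for those that follow.

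SLC1A3 (ENSMMUG00000006202) encodes EAAT1, the second astrocyte carrier, which in the cerebellum is the carrier of Bergmann glia. Its 82935, 81973 and 82530 normalized counts in the morphine libraries stood against 121488, 125758 and 123446 in the saline libraries. The morphine libraries differed little among themselves, with a coefficient of variation of 0.585%, where counting error alone gives 0.344%. The mean fell by 33.2%, from 123564 ± 2140 to 82480 ± 483 (SD, n = 3 libraries per group). The log2 fold change was -0.58 ± 0.0455 (SE; 95% interval -0.70 to -0.47), with a limma adjusted p of 0.00273. No gene lengths of the build used for counting were at hand, so the levels of SLC1A2 and SLC1A3 are not compared with each other.

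SLC1A1 (ENSMMUG00000000135) encodes EAAT3, the carrier found mainly on neurons, which also brings in cysteine. It had 688.7, 656.4 and 545.8 normalized counts in the morphine libraries and 691.7, 647.5 and 702.4 in the saline libraries, and the groups overlapped. Morphine library 3 was the lowest of the 6. Between the means the log2 fold change was -0.12 ± 0.104 (SE) with a limma adjusted p of 0.44. The 95% interval from -0.38 to 0.15 does not reach the falls measured for SLC1A2 and SLC1A3. Without morphine replicate 3 the log2 fold change was -0.02, and without morphine replicate 1 it was -0.18.

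Glutamine synthetase, the enzyme of GLUL (ENSMMUG00000022884), makes glutamine from glutamate and ammonia and in the brain is found mainly in astrocytes. Its morphine libraries held 12708, 12762 and 12972 normalized counts and its saline libraries 15777, 16538 and 15845. The groups did not overlap, and the morphine values lay within a coefficient of variation of 1.09%. The mean fell by 20.2%, from 16054 ± 421 to 12814 ± 139 (SD, n = 3 libraries per group). This gave a log2 fold change of -0.32 ± 0.0481 (SE; 95% interval -0.45 to -0.20), with a limma adjusted p of 0.00973. GLUL and GLUD1 have pseudogenes in the human genome, and reads that such copies share could not be separated here.

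GLS2 (ENSMMUG00000000860) encodes the glutaminase first known from liver, which releases glutamate from glutamine. GLS2 was the most variable of the 8 genes within a group, with 1530, 802.9 and 1245 normalized counts in saline libraries 1, 2 and 3 and 1246, 1171 and 1538 in the morphine libraries. The highest saline library was 1.91 times the lowest, a coefficient of variation of 30.7% where counting error gives 2.91%. Its log2 fold change was 0.18 ± 0.264 (SE) with a limma adjusted p of 0.636, and it was -0.08 without saline replicate 2 and 0.39 without saline replicate 1. The 95% interval, from -0.48 to 0.85, holds changes as large as that of SLC1A3 in the upward direction.

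GLUD1 (ENSMMUG00000022075) encodes mitochondrial glutamate dehydrogenase, which converts glutamate to alpha-ketoglutarate and back. Its 17140, 16693 and 16225 normalized counts in the morphine libraries all lay below the 18484, 18797 and 18189 of the saline libraries. The mean was 16686 ± 458 in morphine and 18490 ± 304 in saline libraries (SD, n = 3 libraries per group). Its log2 fold change of -0.15 ± 0.0493 (SE; 95% interval -0.27 to -0.02) did not pass in limma, with an adjusted p of 0.0804. GLUD1 passed as a fall of the same size in the edgeR quasi-likelihood test on recovered reads (adjusted p = 0.0055), in DESeq2 on those reads (adjusted p = 5.18e-05) and in limma with an intensity trend (adjusted p = 0.00522).

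The aspartate aminotransferases swap amino groups between glutamate and oxaloacetate, GOT1 (ENSMMUG00000010356) in the cytosol and GOT2 (ENSMMUG00000006000) in mitochondria. GOT1 had 3400, 3216 and 3110 normalized counts in the morphine libraries and 2742, 2917 and 3086 in the saline libraries. Every morphine value of GOT1 lay above every saline value, but morphine library 3 and saline library 3 were close together. The log2 fold change of GOT1 was 0.15 ± 0.0692 (SE; 95% interval -0.02 to 0.33), with a limma adjusted p of 0.158. GOT2 had 1625, 1479 and 1528 normalized counts in the morphine libraries and 1449, 1477 and 1433 in the saline libraries. Its log2 fold change was 0.09 ± 0.0568 (SE; 95% interval -0.06 to 0.23), with a limma adjusted p of 0.308. The authors' deposited table gives GOT1 an adjusted p of 0.0602 and GOT2 one of 0.486, so neither passed there.

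Counted by overlap alone, 4 of the 8 genes had all morphine values below all saline values and 2 had them above. Over all genes tested the groups did not overlap for 48.7%, with morphine below for 24.6% and above for 24.1%. The order of the log2 fold changes, from the lowest, was SLC1A2, SLC1A3, GLUL, GLUD1, SLC1A1, GOT2, GOT1 and GLS2. The 95% intervals of SLC1A2 and SLC1A3 overlapped, that of GLUL did not overlap with either of them, and the intervals of the last 4 genes all overlapped with each other.

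**Figure D2:**
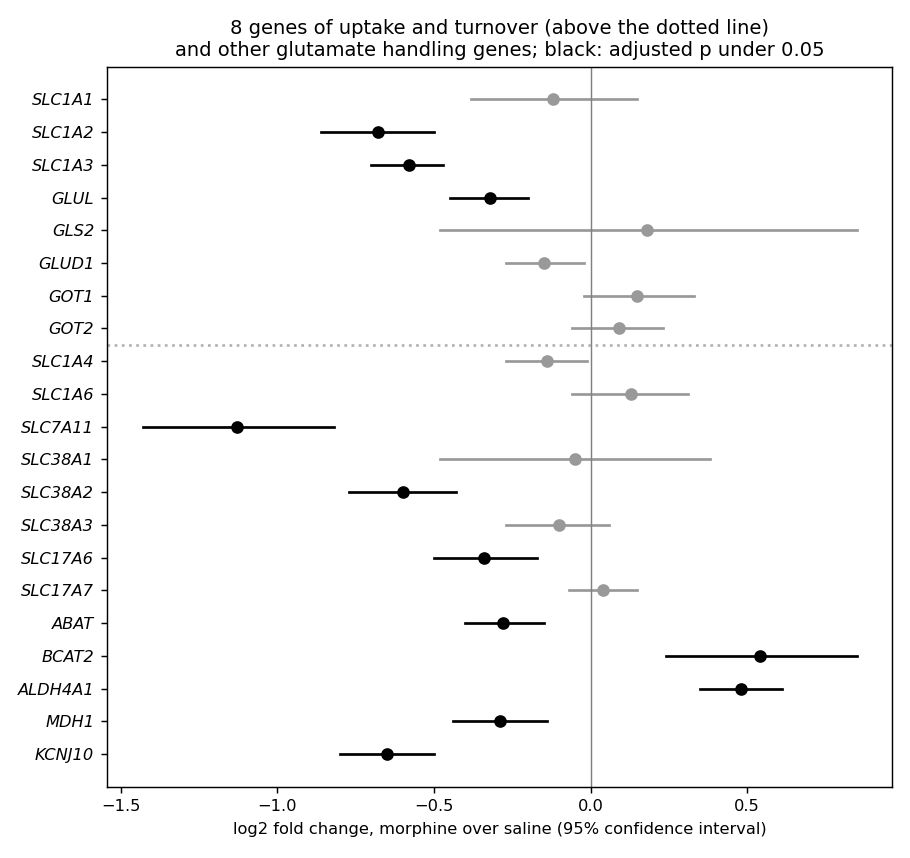
Log2 fold change of morphine over saline (x axis) with its 95% confidence interval from limma, for the 8 genes above the dotted line and for 13 other genes of glutamate handling below it. Black marks an adjusted p under 0.05 and grey the rest. SLC1A2, SLC1A3 and GLUL lie wholly left of 0 in black, and GLS2 has the widest interval. SLC1A5, with a log2 fold change of 4.49, is off this scale and not drawn.

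Ratios between genes within a library do not depend on how libraries were scaled. They compare the RNA levels of genes, and the activity of the steps of the cycle was not measured. The ratios were not tested. The log2 ratio of SLC1A2 to SLC1A1 was 2.48, 2.73 and 2.92 in the morphine libraries and 3.20, 3.32 and 3.30 in the saline libraries. The astrocyte carrier was thus lower relative to the neuronal one in every morphine library than in any saline library, by 0.56 between the means. Against SLC1A3, the log2 ratio of SLC1A2 was -4.43, -4.23 and -4.32 in morphine and -4.25, -4.28 and -4.16 in saline libraries. These overlapped, with a difference of -0.10 between the means, and whether the 2 falls differ in size was not tested. The log2 ratio of GLUL to SLC1A2 was 1.73, 1.54 and 1.65 with morphine and 1.30, 1.35 and 1.20 with saline, without overlap. GLUL thus kept a higher level relative to SLC1A2 in the morphine libraries, by 0.36 between the means. The log2 ratio of GLS2 to GLUL overlapped between the groups, from -3.44 to -3.08 in morphine and from -4.36 to -3.36 in saline libraries. The log2 ratio of GOT2 to GOT1 also overlapped, from -1.12 to -1.03 in morphine and from -1.11 to -0.92 in saline libraries.

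**Figure D3:**
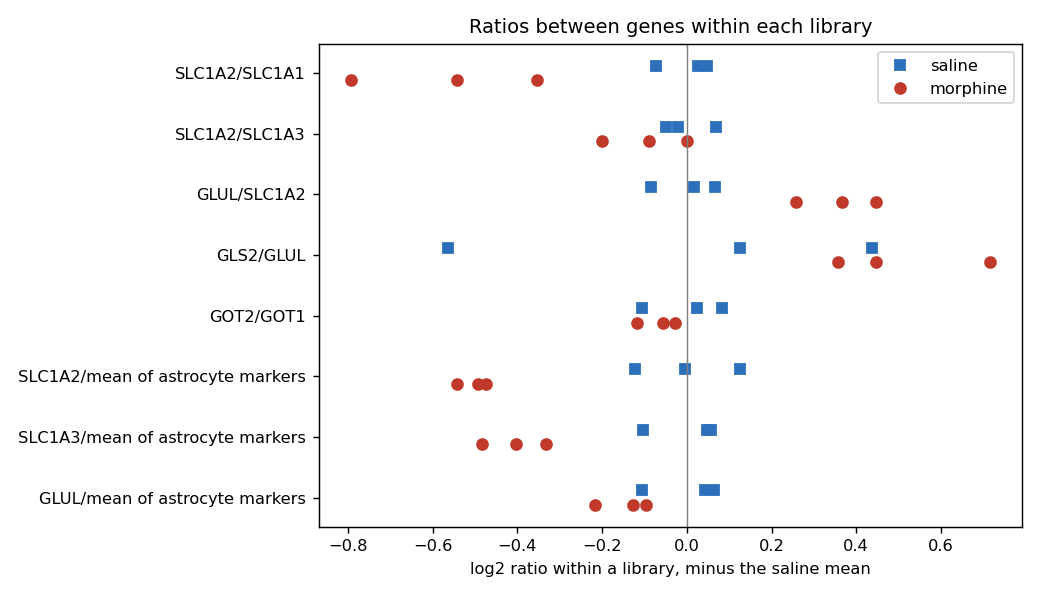
Log2 ratio of 2 genes, or of a gene to the mean log2 level of 11 astrocyte markers, within each saline (squares) and morphine (circles) library, with the mean of the saline libraries set to 0 (x axis). The groups separate for SLC1A2 against SLC1A1, for GLUL against SLC1A2, and for SLC1A2 and SLC1A3 against the astrocyte markers, and they overlap for the other 4 ratios.

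Markers of astrocytes, the cells that carry most SLC1A2, SLC1A3 and GLUL, moved in both directions in these libraries labelled as neurons. Of 13 markers fixed, 11 were measured, of which 4 fell, 2 rose and 5 did not pass, with a median log2 difference of -0.07, and no measured marker was at 0. Over all genes tested 15.0% fell and 12.9% rose. AQP4, the water channel of astrocyte endfeet, fell by 0.48, the gap junction gene GJA1 by 0.94, ALDH1L1 by 0.36 and the bicarbonate carrier SLC4A4 by 0.75. GFAP, the intermediate filament of astrocytes, rose by 0.41 and AGT by 0.80. The summed level of the 11 markers was 228864 to 276864 normalized counts in the morphine libraries and 242869 to 302826 in the saline libraries, and these ranges overlapped. NDRG2 and MLC1 had libraries far apart within a group. NDRG2 stood at 88706, 90879 and 41925 normalized counts in morphine and 102283, 43603 and 44270 in saline libraries, and was singled out after its values were seen. MLC1 stood at 3508, 12209 and 12000 normalized counts in morphine and 14054, 14328 and 14121 in saline libraries. All its morphine values lay below all its saline values, but it did not pass (log2 fold change -0.82, limma adjusted p = 0.291).

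Set against the mean log2 level of the 11 astrocyte markers in the same library, both carriers were lower with morphine. The markers in that mean ranged from GJA1, which fell by 0.94, to AGT, which rose by 0.80. A ratio to that mean therefore does not correct for the number of astrocytes, which was not tested. The log2 ratio of SLC1A2 to that mean was -1.83, -1.76 and -1.78 with morphine and -1.41, -1.29 and -1.16 with saline, a difference of -0.50 between the means. For SLC1A3 the log2 ratio was 2.61, 2.46 and 2.54 with morphine and 2.84, 2.99 and 3.00 with saline, a difference of -0.41. Neither pair of groups overlapped. For GLUL the log2 ratio ranged from -0.22 to -0.10 in morphine and from -0.11 to 0.06 in saline libraries, and the groups overlapped. With NDRG2 and MLC1 left out of the mean, a choice made after seeing the data, the differences were -0.53 for SLC1A2, -0.43 for SLC1A3 and -0.17 for GLUL, and the groups of GLUL no longer overlapped. The log2 difference of the marker mean itself was -0.18 with all 11 markers and -0.15 with 9.

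**Figure D4:**
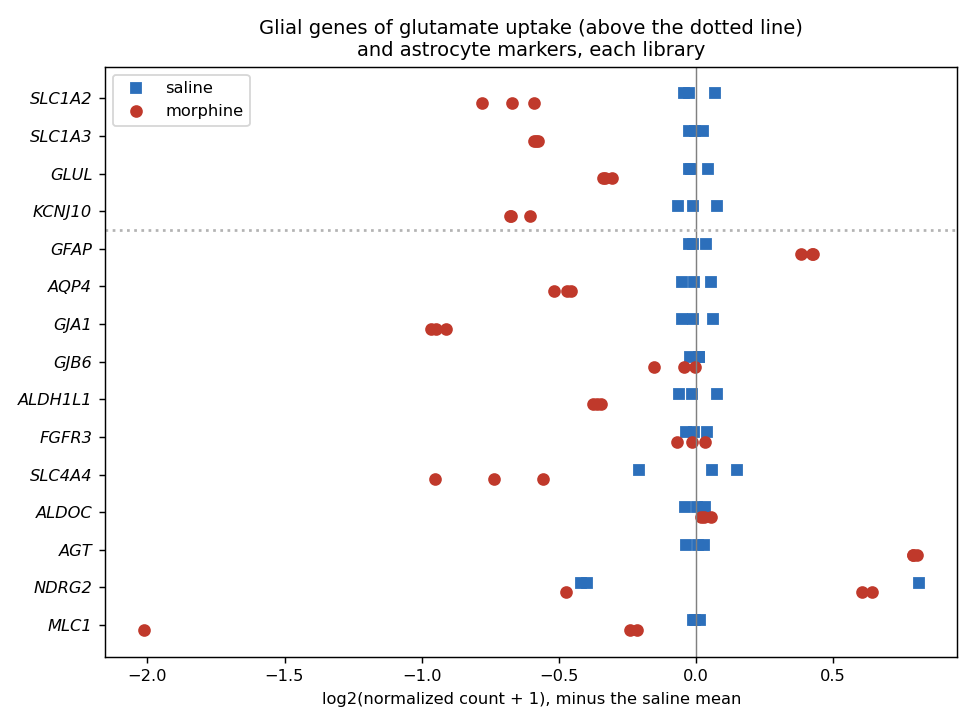
Log2(normalized count + 1) minus the saline mean (x axis) in each saline (squares) and morphine (circles) library, for SLC1A2, SLC1A3, GLUL and KCNJ10 above the dotted line and for 11 astrocyte markers below it. The morphine points of the 4 upper genes lie left of the saline points. Among the markers GFAP and AGT lie to the right, and AQP4, GJA1, ALDH1L1, SLC4A4 and MLC1 to the left. The points of NDRG2 are spread within both groups and those of MLC1 within the morphine group.

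Some markers of other cells were called too, and their part in the values of the 8 genes was not tested. The counts below stand beside 27.9% called over all genes tested, 15.0% as falls and 12.9% as rises. Among genes at least as abundant as the lowest of the 8, 37.3% were called. Of 12 pan-neuronal markers 6 fell and 2 rose, with a summed level of 222663 to 227377 normalized counts in morphine and 276195 to 285361 in saline libraries, and SNAP25 fell by 0.54 and SYT1 by 0.29. Without any 1 library 5 or 6 of them fell and 0 rose. Of 7 microglia markers measured 4 rose and 2 fell, among them CSF1R (rose by 0.87) and P2RY12 (fell by 0.47), and their summed level was 7724 to 8207 against 5335 to 5683. Of 7 excitatory neuron markers 1 fell (NRGN, by 0.22) and 0 rose, of 7 inhibitory neuron markers 2 rose and 1 fell, of 8 oligodendrocyte markers 3 rose and 3 fell, and of 6 oligodendrocyte precursor markers 3 rose. Of 8 endothelial and mural markers 1 rose and 4 fell, of 3 markers of ependyma and choroid plexus 2 fell and 1 rose, and of 2 blood markers 1 rose and 1 fell. Several of these counts depended on single libraries. In the 6 fits that each left out a library, the 1 excitatory fall was lost every time, 1 or 2 inhibitory neuron markers rose, 1 or 2 oligodendrocyte markers rose and 0 to 2 fell, and 1 or 2 precursor markers rose. In those fits 1 or 2 microglia markers and 0 or 1 blood markers fell, while 4 microglia markers rose each time and the endothelial and ependymal counts were as given. The myelin gene MBP reached 189610 normalized counts or more in every library, so glial RNA was present in all 6.

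Beyond the 8 genes, 37 others that carry, make or use glutamate and glutamine were listed, of which 34 were measured. Of these, 8 fell and 4 rose in limma, so 35.3% were called, and their median log2 difference was -0.10. Over all genes tested 15.0% fell, 12.9% rose and 27.9% were called. Among genes at least as abundant as the lowest of the 8, 21.1% fell, 16.2% rose and 37.3% were called. Some of the 34 were less abundant than that, and their count by itself does not set this list apart. Without morphine replicate 1, 2 or 3, 5, 4 and 5 of the 34 fell and 2 rose in each case. Without saline replicate 1, 2 or 3, 6 fell each time, and 3, 2 and 2 rose. The list shares SLC17A7, GAD1 and GAD2 with the neuronal markers.

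Among carriers of the surface membrane, SLC1A5 and SLC7A11 stood out. SLC1A5, which encodes ASCT2, an exchanger of glutamine and other neutral amino acids in the same gene family as the glutamate carriers, had 474, 473 and 491 normalized counts in the morphine libraries. In saline libraries 1, 2 and 3 it had 19.73, 12.03 and 34.8, which are 20, 12 and 33 reads. The mean was 21.6 times as high in morphine as in saline libraries, and the log2 fold change was 4.49 ± 0.37 (SE; limma adjusted p = 0.00297). SLC7A11, the subunit of the cystine-glutamate exchanger that releases glutamate from glia, had 99.9, 84.43 and 102.8 normalized counts in morphine and 218.1, 183.4 and 228.8 in saline libraries, and fell by 1.13 ± 0.122 (SE; limma adjusted p = 0.00485). These 2 calls held in each of the 6 fits without 1 library. Of the related carriers, SLC1A4 had a log2 fold change of -0.14 (adjusted p = 0.108 in limma) and SLC1A6, the EAAT4 gene, one of 0.13 (adjusted p = 0.262). SLC1A7 was below the level for testing, with 4 reads in morphine library 3 and 0 in the other libraries, where a count of 0 allows up to 3 reads.

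Of 4 glutamine carriers listed, all named SLC38, 2 fell and 0 rose, where 15.0% of all genes tested fell and 12.9% rose. SLC1A5, which also carries glutamine and rose, was counted with the surface carriers above. SLC38A2, a system A carrier, went from 450.9, 446.0 and 413.4 normalized counts in the saline libraries to 299.7, 269.6 and 294.0 in the morphine libraries, a log2 fold change of -0.60 ± 0.0687 (SE; limma adjusted p = 0.00543). SLC38A5 fell by 0.20 but did not pass in any fit without 1 library (adjusted p from 0.0717 to 0.106). SLC38A3, the astrocyte carrier that releases glutamine, ranged from 3520 to 3855 in morphine and from 3711 to 4070 in saline libraries, and its log2 fold change of -0.10 did not pass (limma adjusted p = 0.298). SLC38A1, the neuronal system A carrier, overlapped as well, with a log2 fold change of -0.05 ± 0.171 (SE; limma adjusted p = 0.847).

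For the vesicular loading of glutamate, RNA of 3 carrier genes was listed, of which 2 reached the level for testing. Loading itself was not measured. SLC17A7, the VGLUT1 gene of cortical excitatory neurons, had 26103, 26593 and 25830 normalized counts in morphine and 25377, 25292 and 25693 in saline libraries. Its log2 fold change was 0.04 ± 0.0452 (SE; limma adjusted p = 0.54), beside the fall of the glial carriers in the same libraries. SLC17A6, the VGLUT2 gene, fell by 0.34 (limma adjusted p = 0.0204), but its adjusted p was above the threshold when morphine library 2 or 3 was left out (adjusted p = 0.0663 and 0.0603) or saline library 1 or 2 (adjusted p = 0.0551 and 0.0526).

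Among further enzymes and mitochondrial carriers the changes were in both directions. ALDH4A1, which makes glutamate in the breakdown of proline, rose by 0.48, from 2403, 2402 and 2536 normalized counts in the saline libraries to 3332, 3501 and 3418 in the morphine libraries. BCAT2, the mitochondrial aminotransferase of branched-chain amino acids, rose by 0.54, but with 1 library left out passed in only 1 of 6 fits (adjusted p from 0.0353 to 0.0816). ABAT, which breaks down GABA and makes glutamate, fell by 0.28, and missed the threshold with morphine library 1 or 2 left out (adjusted p = 0.0529 and 0.0517). MDH1, the cytosolic malate dehydrogenase of the malate-aspartate shuttle, in which GOT1 takes part, fell by 0.29 and with 1 library left out passed in 2 of 6 fits (adjusted p from 0.0466 to 0.0708).

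Uptake of glutamate depends on the sodium and potassium gradients that astrocytes maintain. KCNJ10, the Kir4.1 potassium channel of astrocytes, had 9376, 9356 and 9846 normalized counts in morphine and 14841, 15787 and 14305 in saline libraries, and fell by 0.65 ± 0.0603 (SE; limma adjusted p = 0.00361). That is close in size to the changes of SLC1A2 and SLC1A3.

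The genes most like SLC1A2 across the 6 libraries were sought among 5752 tested genes with a symbol and a mean of at least 1000. Likeness was the root mean square difference between the log2 values of 2 genes, each centred on its own mean, so that it reflects the group difference and the spread within groups together. The nearest were TWF1 (0.0285), TCAIM (0.0321), RGS5 (0.0366), LPAR1 (0.0385) and TMEM155 (0.0505). Their log2 fold changes lay between -0.73 and -0.61, around the -0.68 of SLC1A2. RGS5 is known as a marker of pericytes. For SLC1A1 the nearest were IRS1 (0.0433), ACO1 (0.0479), MEF2D (0.0513), FAM220A (0.0515) and MCAM (0.0525), with log2 fold changes between -0.17 and -0.04. These distances are descriptions over 6 libraries that share 2 group means, and no test goes with them.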

How the data were processed

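Titles gave the groups and replicate numbers. Per the submitters' processing notes, Bowtie2 (2.1.0), DESeq2 (1.18.1), StringTie and build hg19 were used, with no roles. The identifiers are rhesus ones. Annotation and strand are not given in the sources used here, so no coordinates are printed.

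The deposited values are normalized counts per library, a signal. Within each library they were multiples of 1 step, so its reads had been scaled by 1 size factor. The authors' log2 fold changes, their p-values and their test statistic, a score, are in the same deposited table. A deposited subset of 2332 genes was not used. Reads were recovered from the steps between low values, and 100% of values came out whole (within 0.001). Depth was 31238653 to 36345095 reads. DESeq2 called 5781 genes on these reads and edgeR 5636. Symbols matched 66.6% of identifiers.

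All 16595 genes with a mean of at least 10 were fitted with limma 3.58.1 (R 4.3.3) on log2(value + 1), by group alone. This scale understates changes of low genes. Tests were two-sided, with Benjamini-Hochberg adjustment over those genes and a threshold of 0.05. P-values measure only the spread between these libraries. Libraries within a group differed by more than sampling noise (mean chi-square 17.5 to 23.8). Limits for a count of 0 cover counting error only. Scripts were tested on simulated data.

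The 8 genes, all lists and the naming rule were chosen with earlier results of these data known. The rule took the 8 genes, 8 fixed genes of glutamate handling and the 6 others with the smallest adjusted p, 4 fixed astrocyte markers and the 3 others with the smallest adjusted p, the 2 most abundant of each other marker list (some given only as counts), and the 5 genes most like SLC1A2 and SLC1A1. A few genes under this rule are left out of the text. SLC1A4, SLC1A6, SLC1A7, SLC38A5 and NDRG2 were named after their values were seen. PRODH, SOX9 and S100B were not analysed here.

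Alternatives comprised TMM and upper-quartile scaling, a minimum mean of 50 or none, pseudocounts 0.5 and 5, a replicate block, omission of single libraries, a threshold of 0.01, an intensity trend, edgeR 4.0.16, DESeq2 1.42.0 and the authors' comparison. Those for ratios were chosen after seeing the data. Plots used matplotlib 3.10.9.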

Additional observations from a re-analysis of the deposited data

How the results depend on the processing

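Across 18 alternatives for each of the 8 genes, 138 of 144 values kept their direction and their side of the threshold. SLC1A2 and SLC1A3 fell in all 18, with log2 fold changes from -0.73 to -0.63 and from -0.60 to -0.56. GLUL had an adjusted p of 0.0604 in limma with the replicate block (log2 fold change -0.32), and kept its call in the other 17. GLUD1 passed, at a log2 fold change of -0.15 each time, with an intensity trend in limma, in edgeR, in DESeq2 and in the authors' deposited table. DESeq2 and the authors' table gave the same values for each of the 8 genes. They are not independent of each other, though both stand among the 18 alternatives. GLS2 changed sign to -0.08 without saline replicate 2, and ranged from -0.08 to 0.39 with single libraries left out. Of the other glutamate handling genes, 2 rose and 5 fell without a filter, 2 rose and 4 fell with the replicate block or at an adjusted p under 0.01, and with single libraries left out rises numbered 2 to 3 and falls 4 to 6, while 4 rose and 12 fell in edgeR and in DESeq2. Over all genes 1363 rose and 1630 fell without a filter, 681 rose and 896 fell with the replicate block, 634 rose and 898 fell at an adjusted p under 0.01, and with single libraries left out rises numbered 1064 to 1502 and falls 1465 to 1680. No ratio between genes moved by more than the spread between libraries under the alternatives tried. The replicate numbers did not pair the libraries: deviations from the group means correlated at -0.0563, -0.00392 and -0.0284 over 16595 genes for numbers 1, 2 and 3. The block leaves fewer residual degrees of freedom. The cause of the other shifts was not tested.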
